A study of Mus musculus with 15 samples.

Results

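The comparison described here set mouse embryonic stem cells grown with an Aurora kinase A inhibitor against the same cells grown with FGF2 and Activin, across all genes. It used 6 of the 15 RNA-seq libraries of the series, 3 labelled Aurka inh and 3 labelled FGF2/Activin, chosen by their labels and not by any measured value. Of 49585 genes in the count table, 15223 had enough counts to be tested. All cells were E14, a wild-type mouse embryonic stem cell line. They had been maintained with 0.4 µM PD0325901, an inhibitor of MEK, 3 µM CHIR99021, an inhibitor of GSK3, and 4 ng/ml Lif, a cytokine that holds the cells in the naive state. The cells were embedded at 2000 cells per µl in growth factor reduced Matrigel, a gel of basement membrane proteins, under N2B27, a serum-free medium. The Aurka inh group received the Aurora kinase A inhibitor in that medium, and the FGF2/Activin group received both growth factors. The labels name neither the inhibitor compound nor its dose, and give no time in culture. No group grew in N2B27 alone, so the comparison changes the medium on both sides: one group has the inhibitor and lacks the growth factors, the other has the growth factors and lacks the inhibitor. The other 3 groups were 2iLif, PD032, and PD032+ Aurka inh, called the combination here. They enter below only to show on which side of the comparison a gene stood apart. The labels expand neither PD032 nor FAK, their other name for FGF2/Activin.

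Aurora kinase A is a serine/threonine kinase that works at the centrosome and spindle poles and drives entry into mitosis and assembly of the spindle. FGF2 acts through receptor tyrosine kinases, RAS and the RAF, MEK and ERK cascade, and ERK in turn induces feedback inhibitors of its own pathway. Activin acts, as Nodal does, through type I and type II receptors and Smad2 and Smad3. In mouse pluripotent cells, LIF and Wnt signals hold the naive state of the early epiblast, while FGF and Activin or Nodal signals carry the cells into the formative and primed states and support the polarised epiblast epithelium that opens a lumen.

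The Aurka inh libraries held 16010904 to 21691325 counts each, and the FGF2/Activin libraries 15234243 to 15703321. The variation between libraries, as the biological coefficient of variation, was 11.1% in Aurka inh and 1.79% in FGF2/Activin. No label says that the 3 libraries of a group came from separate cultures, so p-values rest on the spread from library to library, which may be technical. Aurka inh replicate 2 stood apart from the other 2 of its group: it was the highest of the 3 in 14 of 16 naive pluripotency genes, 24 of 24 ribosomal protein genes and 7 of 7 tested mitochondrially encoded genes, and the lowest in 13 of 16 formative genes and 22 of 24 cholesterol genes. Over all genes it was the highest of the 3 in 39.3% and the lowest in 41%. The columns of the count table end in R and the replicate number for the 9 libraries of Aurka inh, PD032 and the combination. They end in the replicate number alone for the 6 of FGF2/Activin and 2iLif, and this ending is called the naming style here. Within the 6, the FGF2/Activin columns also begin with numbers that the 2iLif columns lack, so these 6 need not share a batch. Whatever else differed between these styles cannot be told apart from the comparison. Summed over 61 tested small nucleolar RNA genes, the level was 151.4 to 165.3 CPM (counts per 1000000) in Aurka inh and 62.4 to 68.5 CPM in FGF2/Activin, with 97.7 to 143.5 CPM in the other 2 groups of the first style and 85.1 to 107.2 CPM in 2iLif. Of these genes, 44 were at least 2-fold higher in Aurka inh and 0 were 2-fold lower. Their part in other differences was not tested.

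Both groups carried the defining markers of embryonic stem cells. Pou5f1, the central pluripotency factor, ranged from 674 to 806 CPM in Aurka inh and from 680.4 to 712 CPM in FGF2/Activin, and Sox2 from 212 to 337 CPM and from 169.7 to 174.9 CPM. The endoderm factors Gata6 and Sox17, the mesoderm factor Mesp1, the trophoblast markers Elf5, Tpbpa and Gata3 and the 2-cell markers Zscan4c and Zscan4d were below 0.5 CPM in all 6 libraries. Other markers of such cells were detected. The mesoderm factor T reached 9.26 CPM in Aurka inh, and the primitive endoderm markers Sox7 and Dab2 reached 2.94 and 4.4 CPM in FGF2/Activin. The fibroblast marker Thy1 was at 11.8 to 18.7 CPM in Aurka inh and 11.9 to 13.1 CPM in FGF2/Activin. The germline marker Dazl was at 7.85 to 14.2 and 7.73 to 8.49 CPM. Summed over all markers of a cell type, FGF2/Activin was above Aurka inh for primitive endoderm (168.4 to 174.8 against 108.1 to 142.7 CPM) and neuroectoderm (130.1 to 140.6 against 72.9 to 95.6 CPM). The germline sum was also above (141.28 to 143.45 against 96.32 to 123.66 CPM). FGF2/Activin was below Aurka inh for primitive streak and mesoderm (15.7 to 20.8 against 40.2 to 51.4 CPM) and definitive endoderm (3.96 to 5.11 against 7.23 to 9.32 CPM). It was below as well for fibroblasts and other stroma (605.3 to 615.7 against 883.1 to 1088.5 CPM). The trophoblast sums overlapped, and the 2-cell sums were near 0 in both groups (0.128 to 0.131 against 0 to 0.126 CPM). The stromal sum was nearly all Fn1, which encodes fibronectin, at 997, 845 and 796 CPM in Aurka inh and 557, 546 and 553 CPM in FGF2/Activin, followed by the endothelial marker Pecam1 at 74.9, 97.2 and 67.1 against 37, 39.1 and 42.9 CPM. These were the 2 higher genes of 5 tested in that list, while Dcn and Col1a2 were lower, and 7 more had too few counts to be tested. Dcn, a small proteoglycan, had 0.0455, 0 and 0.052 CPM in Aurka inh and 4.78, 3.77 and 5.11 CPM in FGF2/Activin, a ratio of counts of 129.9 (95% exact interval 35.5 to 1080, counting error only). Col1a2, a collagen chain, had 0.273, 0.503 and 0.624 against 2.1, 2.36 and 1.79 CPM. The part of such cells in the results was not tested. In bulk RNA, fewer cells that express a gene and less RNA per cell cannot be told apart.

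Most of the genes tested, 55.1%, differed between the groups. At a Benjamini-Hochberg adjusted p under 0.05 (edgeR quasi-likelihood test), the rule for every call below, 3812 genes were higher in Aurka inh, which is 25% of those tested, and 4577 were lower, which is 30.1%. With a change of at least 2-fold required as well, 1170 were higher (7.69%) and 1704 lower (11.2%). The median log2 fold change over all genes was -0.02, with quartiles of -0.40 and 0.31. Fold changes are given throughout as log2 of Aurka inh over FGF2/Activin, so that a negative value means lower with the inhibitor. After a fold change, ± gives an approximate standard error, the size of the log2 fold change over the square root of its F statistic. It comes from the fit of all 15 libraries, 3 per group, in which the spread is shared between groups. The 3 libraries of one group did not overlap with those of the other in 62.5% of all genes. With so many genes called, the count for any gene group has to be read against these shares.

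**Figure D1:**
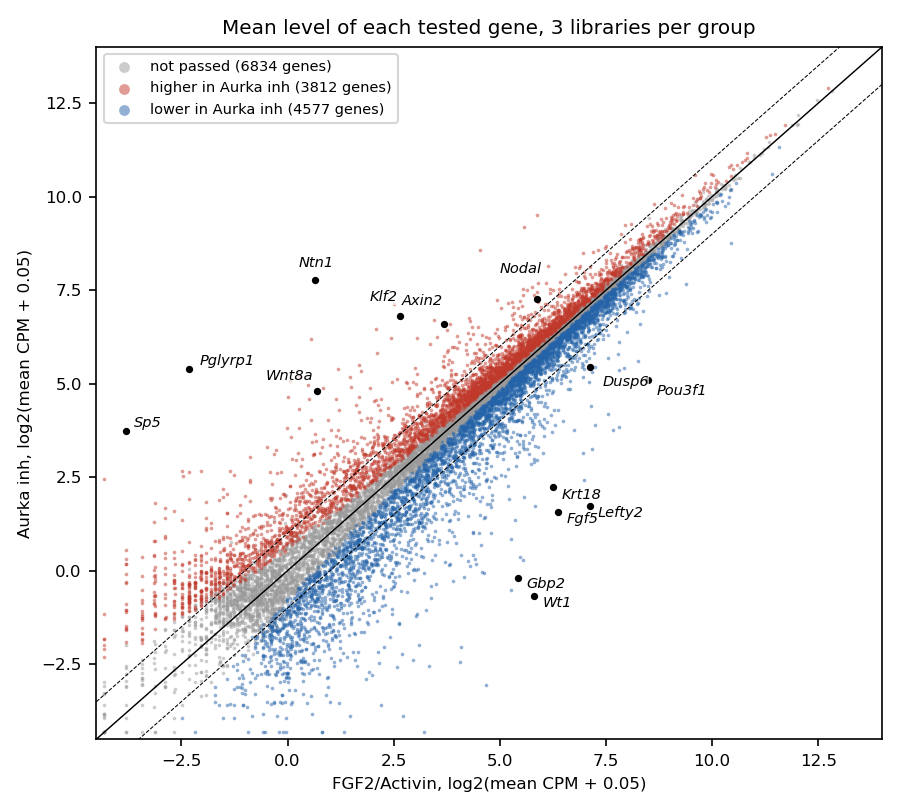
Mean level of each tested gene in FGF2/Activin (x axis) and Aurka inh (y axis), both as log2(mean CPM + 0.05) over 3 libraries; red points passed as higher in Aurka inh, blue as lower, grey did not pass, and the dashed lines mark 2-fold. Ntn1, Sp5, Pglyrp1, Klf2, Wnt8a and Axin2 lie far above the diagonal and Wt1, Gbp2, Lefty2, Fgf5 and Krt18 far below it.

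The 12 largest decreases were taken among genes with a mean of at least 10 CPM in the higher group and groups that did not overlap. They included the Nodal and Activin targets Lefty2 and Pmepa1 and 2 fibroblast growth factors (Fgf5 and Fgf15). Also among them were 4 interferon-inducible genes (Oasl2, Gbp2, Gbp2b and Gbp3), with Wt1, Car4 and Kbtbd11. Wt1 (chr2:105126529-105173616), a zinc finger factor of mesoderm and kidney, was at 0.546, 0.566 and 0.624 CPM in the 3 Aurka inh libraries and 54.8, 56.3 and 56 CPM in the 3 FGF2/Activin libraries, a log2 fold change of -6.57 ± 0.22. It was below 1 CPM in every Aurka inh library and far above that in every FGF2/Activin library. Positions are those of GENCODE M21 for whole genes on mm10, and reads of overlapping or antisense genes cannot be told apart, since the strand setting of the counting is not given in the sources used here.

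The 12 largest increases were taken by the same rule, which requires groups that do not overlap. They were the Wnt-responsive factors Sp5 and Nkx1-2 and the ligand Wnt8a, the naive factors Tbx3 and Klf2, and Pglyrp1, Ntn1, Sall3, Nt5e, Ephx2, Cep112 and Tnfrsf19. Ntn1 (chr11:68209364-68400823), the secreted guidance protein netrin 1, was at 223, 250.3 and 187 CPM in Aurka inh and 1.77, 1.53 and 1.28 CPM in FGF2/Activin, a log2 fold change of 7.17 ± 0.13 (adjusted p = 2.7e-15, edgeR). Pglyrp1 (chr7:18871331-18890459), a peptidoglycan recognition protein, was at 33.7, 58.9 and 33 against 0.131, 0.255 and 0.0639 CPM. Tnfrsf19 (chr14:60963875-61046490), a receptor of the TNF family, was at 92.1, 85.7 and 85.8 against 5.05, 3.89 and 3.64 CPM. In these 3 genes the lowest Aurka inh library was far above the highest FGF2/Activin library.

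The levels in all 15 libraries show on which side of the comparison a gene was unusual. In 1995 of the 3812 higher genes and 2513 of the 4577 lower genes, the 3 FGF2/Activin libraries lay outside the range of the other 12. The 3 Aurka inh libraries lay outside the range of the other 12 in 281 higher and 408 lower genes. In 23 higher and 45 lower genes both groups did so, at opposite ends. In 591 higher and 650 lower genes all 9 libraries of one naming style lay on one side of all 6 of the other, and these overlap with the counts above. With each gene counted once and the naming split taken first, FGF2/Activin alone was outside in 1797 higher and 2271 lower genes, Aurka inh alone in 222 and 333, and both in 20 and 33. Pseudogenes made up 39.1% of the 2-fold lower genes split by naming style and 4.97% of all genes tested. Of the genes named in the text, 35 were split in this way, among them Fgf4, Gbx2, Tdgf1, Smad7, Myc, Spry4, Ccne1, Krt8, Snai1 and Irf1, and their 2iLif libraries were on the side of FGF2/Activin. In Smad7 the mean was 8.88 CPM in Aurka inh, 41.5 CPM in 2iLif and 64.4 CPM in FGF2/Activin, and in Tdgf1 194, 429 and 362 CPM. The remaining 1182 higher and 1290 lower genes fell into none of these classes.

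**Figure D2:**
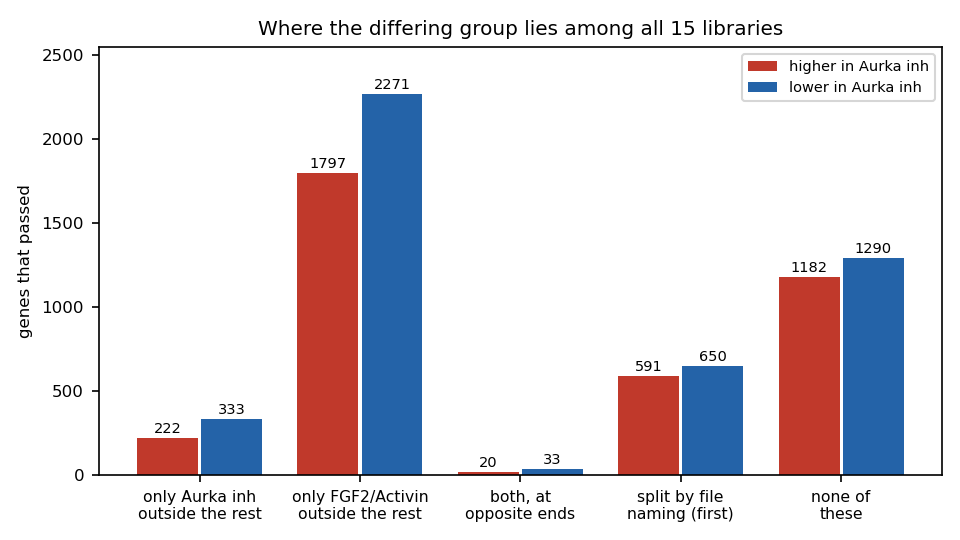
Number of genes that passed (y axis), higher (red) or lower (blue) in Aurka inh, by how the libraries of the 5 groups were ordered, with each gene counted once and genes split by naming style taken out first. The bars for FGF2/Activin alone outside the other 12 libraries, 1797 and 2271, are the tallest, and those for Aurka inh alone are 222 and 333.

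The genes in which Aurka inh alone was outside were defined by range, whatever the margin. In some of them, such as Epas1 below, another group lay close to the Aurka inh level. Among the higher ones with at least 10 CPM, the 8 with the largest fold changes were Nt5e, Wnt8a, Sp8, Wnt5b, Arhgef26, Rtl8b, Peg10 and Lhpp. Peg10, a paternally expressed gene derived from a retrotransposon, was at 318, 264 and 272 CPM in Aurka inh and 66.3, 69.6 and 73.9 CPM in FGF2/Activin, with means of 45.8 in 2iLif, 90.4 in the combination and 44.7 CPM in PD032. Nt5e, the ectoenzyme CD73 that makes adenosine, was at 32.8, 39.6 and 27.6 against 1.11, 1.08 and 0.767 CPM, with means of 11.2, 14 and 0.134 CPM in those 3 groups. Each Aurka inh library was above every other library of the series in both genes, as the choice of this class requires.

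The 8 lower genes of this kind with the largest fold changes were Kbtbd11, Pdzd2, Aldh1b1, Ifitm3, Icam1, Epas1, Dock5 and Atp2a3. Kbtbd11 was at 1, 0.818 and 0.988 CPM in Aurka inh and 23.6, 24.8 and 23.2 CPM in FGF2/Activin, with means of 66.2 in 2iLif, 4.97 in the combination and 42.1 CPM in PD032. Epas1, which encodes the hypoxia-inducible factor HIF-2 alpha, was at 12.6, 12.6 and 9.93 against 31.8, 36.9 and 37.1 CPM, with 13.2, 20.1 and 32.4 CPM in those groups. Ifitm3, an interferon-induced membrane protein, was at 20.1, 23.7 and 17.9 against 70.8, 66.9 and 68.7 CPM. The combination, the only other group with the Aurora inhibitor, had 45 CPM of Ifitm3, and its mean lay below FGF2/Activin in all 3 genes. The group next to Aurka inh was the combination for Kbtbd11 and Ifitm3 and 2iLif for Epas1.

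Targets of Nodal and Activin signalling were lower in Aurka inh while the ligand Nodal was higher. Of 17 tested genes of this pathway, 5 were higher and 10 lower, 2 and 6 of them by at least 2-fold, with a median of -0.40, which was -0.24 without Aurka inh replicate 3 and -0.26 in a fit of the 6 libraries alone. Over all genes tested 25% were higher, 30.1% lower and the median was -0.02. Nodal was at 154, 148 and 157 CPM in Aurka inh and 61.5, 57.9 and 57.9 CPM in FGF2/Activin, a log2 fold change of 1.37 ± 0.10. The 3 Aurka inh libraries were the highest of all 15, above the means of 68.5 CPM in 2iLif and 99.9 CPM in the combination. Gdf3, a related ligand, and Fst, which binds and neutralises Activin, were also higher, at 103 ± 11.6 against 63.3 ± 0.745 CPM and 44.7 ± 3.96 against 12.7 ± 1.7 CPM (mean ± SD, n = 3). Fst was nearly as high in 2iLif, at 40.6 CPM.

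The secreted antagonists Lefty1 and Lefty2, both direct Smad2 and Smad3 targets, went the other way from their ligand. Lefty2 was at 3.41, 2.71 and 3.69 CPM in Aurka inh and 143, 136 and 137 CPM in FGF2/Activin, and Lefty1 at 14.1, 8.94 and 19.7 against 237, 224 and 216 CPM. Inhbb, which encodes an Activin subunit, had 0 counts in Aurka inh and 0.328, 0.383 and 1.15 CPM in FGF2/Activin, where replicate 3 was the highest. The groups did not overlap in either Lefty gene, and the log2 fold changes were -5.39 ± 0.21 and -3.97 ± 0.27. Inside the cell, the inhibitory Smad gene Smad7 was at 9.82, 7.93 and 8.89 against 62.5, 62.6 and 68.2 CPM and the Smad co-repressor gene Skil at 189, 138 and 192 against 466, 479 and 504 CPM. Pmepa1, a feedback inhibitor of TGF-beta signalling that was not in the list, was at 1, 0.566 and 1.14 against 25.6, 23.9 and 24.6 CPM. All 5 of these genes were lower in every Aurka inh library than in every FGF2/Activin library.

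Receptors and transducers of the pathway had smaller log2 fold changes. Smad2 was at 53 ± 1.09 CPM in Aurka inh and 61.2 ± 1.76 CPM in FGF2/Activin and the type II receptor gene Acvr2b at 31.5 ± 6.24 against 43.7 ± 0.956 CPM. Their log2 fold changes were -0.21 and -0.47. Tdgf1, the Nodal co-receptor Cripto, which the lists hold among the core pluripotency genes, was at 189, 206 and 188 against 355, 361 and 370.1 CPM. It was lower in all 3 Aurka inh libraries, with a log2 fold change of -0.90 ± 0.054.

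**Figure D3:**
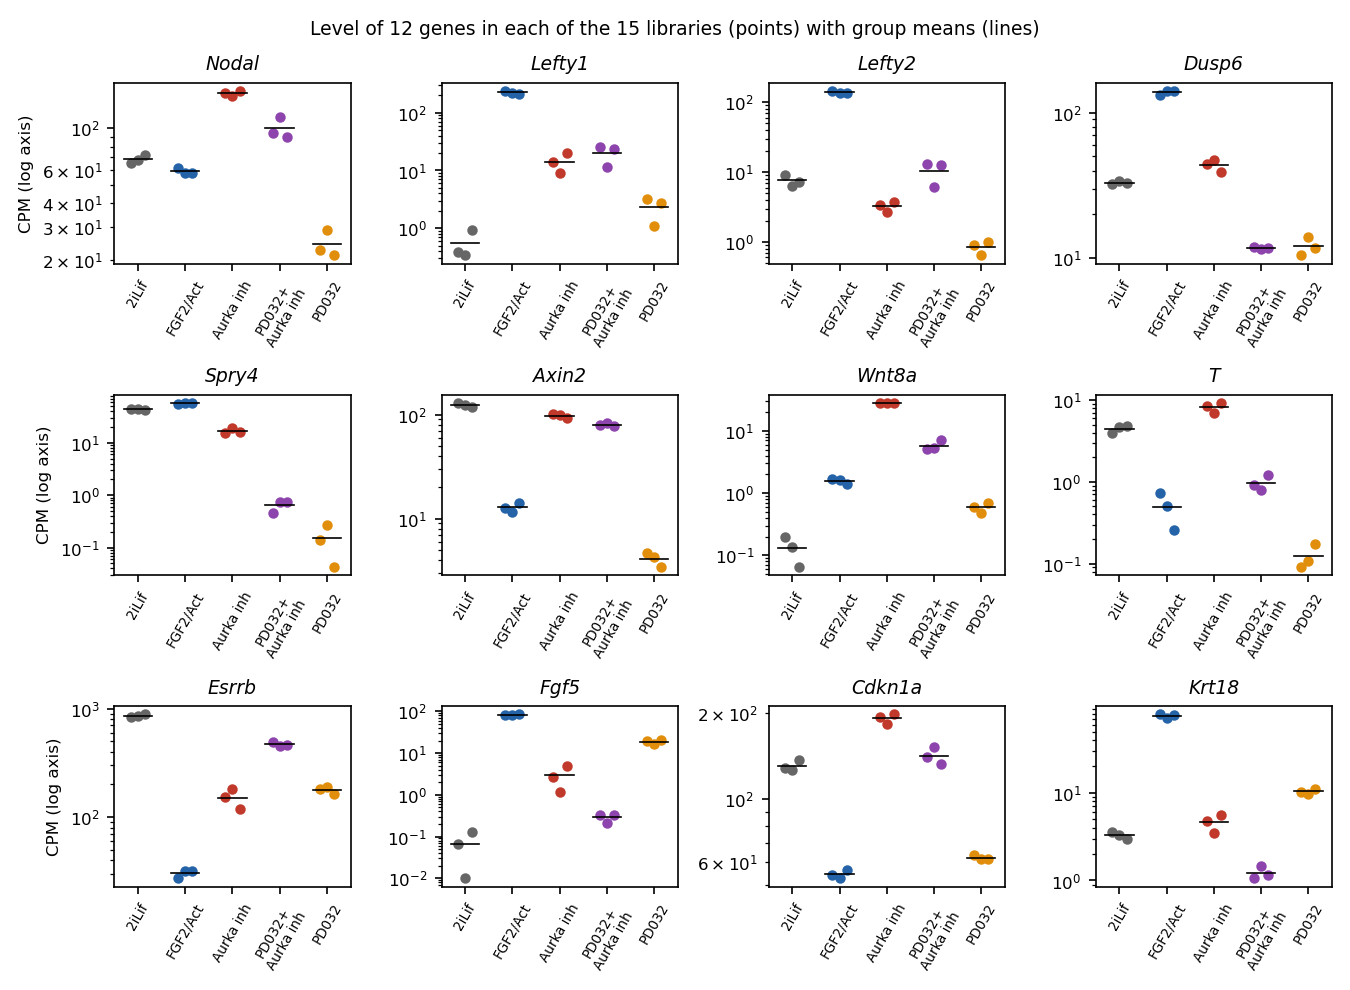
Level in CPM (log axis) of 12 genes in each of the 15 libraries, by group on the x axis; points are libraries, lines are group means, and values of 0 are drawn at 0.01. Aurka inh is the highest group for Nodal, Wnt8a, T and Cdkn1a, while FGF2/Activin is the highest for Lefty1, Lefty2, Dusp6, Spry4, Fgf5 and Krt18 and the lowest for Esrrb and Cdkn1a.

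Feedback genes of the ERK pathway were mostly lower in Aurka inh, and several were lower still in the groups with PD032. Of 20 tested ERK targets, 4 were higher and 11 lower, 0 and 6 of them at least 2-fold, with a median of -0.40. Dusp6, the phosphatase that removes phosphate from ERK, was at 44.2, 47.5 and 38.8 CPM in Aurka inh and 133, 140.4 and 141 CPM in FGF2/Activin, with means of 33 in 2iLif, 11.7 in the combination and 12 CPM in PD032. Spry4, a Sprouty inhibitor of receptor tyrosine kinase signalling, was at 15.7, 19.4 and 16.2 against 55.4, 56.5 and 58.4 CPM. Its means were 43.6 CPM in 2iLif, 0.647 CPM in the combination and 0.149 CPM in PD032. Etv4, an ETS factor induced by FGF, was at 43.5, 48.7 and 43.6 against 90.2, 99 and 88.7 CPM, with 28.6, 3.98 and 1.44 CPM in those groups. In these 3 genes the Aurka inh libraries lay between FGF2/Activin and both groups with PD032. The 2iLif mean was above Aurka inh for Spry4 and below it for Dusp6 and Etv4.

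Myc, a growth factor-induced transcription factor, was at 14, 15.7 and 14.4 CPM in Aurka inh and 66.5, 63.2 and 62.3 CPM in FGF2/Activin, a log2 fold change of -2.13 ± 0.12. The mean of Myc was 21.1 CPM in 2iLif, 6.02 CPM in the combination and 3.6 CPM in PD032. Spry1, Spred3, Dusp4 and Dusp5, further feedback inhibitors, were lower, with log2 fold changes of -0.98, -1.26, -0.79 and -1.28. Other members of the same families were higher. Spred1, a RAS inhibitor, was at 174, 160 and 163 against 94.6, 98.8 and 99 CPM and was above all 12 libraries of the other groups. Spry2 was at 62.1, 72 and 57.4 against 46.5, 48.6 and 45.5 CPM and the ETS gene Etv1 at 28.9, 31.2 and 29 against 20.2, 20.2 and 21.2 CPM. Etv5, the closest relative of Etv4, was at 463, 413 and 434 against 450, 462 and 461 CPM, a difference of -0.07 ± 0.055 that did not pass.

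The immediate early genes were uneven between the Aurka inh libraries. Egr1 was at 79, 24 and 61.7 CPM in Aurka inh and 26.4, 22.7 and 27.3 CPM in FGF2/Activin. Fos was at 5.91, 0.566 and 4.63 against 1.9, 1.4 and 1.47 CPM. In both genes Aurka inh replicates 1 and 3 were above every FGF2/Activin library and replicate 2 lay within or below them, and neither passed (adjusted p = 0.23 and 0.24, edgeR).

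Upstream of ERK, differences were smaller. Of 17 tested RAS and MAPK genes 2 were higher and 9 lower, against 25% and 30.1% of all genes tested. Without Aurka inh replicate 2 the count of lower genes was 6. Shc1, an adaptor of receptor tyrosine kinases, was at 139, 112 and 135 CPM in Aurka inh and 261, 261 and 262 CPM in FGF2/Activin, and Hras at 54.3, 60.4 and 62.4 against 114, 109 and 111 CPM. Mapk3, which encodes ERK1, was lower, with a log2 fold change of -0.61 ± 0.056. Nf1, a RAS GTPase-activating protein, was higher, at 42.2 ± 5.35 against 29.8 ± 0.118 CPM.

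Among FGF ligands and receptors, 3 of 13 tested genes were higher and 6 lower, against 25% and 30.1% of all genes tested. The lower ones were the ligand genes Fgf3, Fgf8 and Fgf17, the receptor gene Fgfr3, the FGF-binding protein gene Fgfbp3 and the proteoglycan gene Sdc1, with log2 fold changes of -2.45, -1.33, -1.84, -1.51, -1.62 and -0.66. Of these only Sdc1 was above 5 CPM. Fgf4, Fgf5 and Fgf15 were not in this list, and Fgf4 is counted among the naive and Fgf5 among the formative genes. Fgf4, the autocrine FGF of mouse embryonic stem cells, was at 79.4, 97 and 72.7 CPM in Aurka inh and 259, 252 and 256 CPM in FGF2/Activin, a log2 fold change of -1.62 ± 0.10. Fgf15 was at 1.27, 1.07 and 1.4 against 45.4, 42.6 and 45.2 CPM and Fgf5 at 2.73, 1.2 and 4.84 against 81.7, 80.9 and 85.3 CPM. Fgf4, Fgf5 and Fgf15 were lower without overlap of the groups. Fgfr1, a main receptor of FGF2 and Fgf4, was at 103, 97.7 and 107 against 113, 105 and 107 CPM and did not pass. Fgfr2 was higher at 25.9 ± 1.85 against 14.3 ± 0.353 CPM, and the heparan sulfate proteoglycan gene Sdc4 at 189, 241 and 195 against 55.6, 60 and 63.2 CPM.

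Genes under Wnt and beta-catenin control were higher in Aurka inh. Of 15 tested Wnt targets and feedback genes, 9 were higher and 1 lower, 7 and 0 of them at least 2-fold, with a median of 0.97. Axin2, the classical feedback target of beta-catenin, was at 100.5, 99.3 and 91.8 CPM in Aurka inh and 12.5, 11.6 and 14.2 CPM in FGF2/Activin, a log2 fold change of 2.93 ± 0.084. Its mean was 124 CPM in 2iLif, where GSK3 is inhibited, 80.1 CPM in the combination and 4.11 CPM in PD032. The Aurka inh libraries thus lay near 2iLif and far above FGF2/Activin and PD032.

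Sp5, a zinc finger repressor that beta-catenin induces directly, had 757 counts over the 3 Aurka inh libraries and 1 count over the 3 FGF2/Activin libraries. The ratio per scaled total was 617.5 (95% exact interval 110.5 to 24420.0, counting error only). By library it was 12.8, 12.8 and 14.1 CPM in Aurka inh, with means of 65.4 CPM in 2iLif, 4.22 CPM in the combination and 0 CPM in PD032. Its paralog Sp8 was at 16.5, 12.8 and 19.6 against 1.77, 1.47 and 2.43 CPM, and the homeobox gene Nkx1-2 at 34.6, 40.8 and 34.7 against 1.25, 1.28 and 0.958 CPM. Lef1, a Tcf family member that is itself a Wnt target, was the 1 lower gene, at 47.9, 62 and 54.2 against 77.1, 72.9 and 75.5 CPM. Tcf7 and Ccnd1, also often listed as Wnt targets, had log2 fold changes of 0.04 and -0.08 and did not pass.

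The promoters of Sp5 and of the primitive streak gene T are shown because both genes were higher in all 3 Aurka inh libraries and hold the core letters that Tcf and Lef proteins recognise. Each sequence is the 250 bases before the start in RefSeq on GRCm38.p6, 5′ to 3′ on the gene's strand, with matches to CTTTGA on either strand in capitals.
Sp5, chr2:70474673-70474922, plus strand: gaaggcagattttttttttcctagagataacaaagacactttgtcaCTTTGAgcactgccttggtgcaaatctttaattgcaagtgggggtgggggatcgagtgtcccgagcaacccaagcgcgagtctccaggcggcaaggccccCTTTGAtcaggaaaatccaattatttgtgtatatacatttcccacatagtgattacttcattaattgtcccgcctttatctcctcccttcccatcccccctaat
T, chr17:8434173-8434422, plus strand: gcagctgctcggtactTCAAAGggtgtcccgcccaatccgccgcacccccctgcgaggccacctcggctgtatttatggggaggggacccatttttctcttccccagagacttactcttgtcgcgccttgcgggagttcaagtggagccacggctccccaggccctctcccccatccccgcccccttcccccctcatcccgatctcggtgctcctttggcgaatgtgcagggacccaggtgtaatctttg
Sp5 held 2 matches, beginning 204 and 104 bases before the start, and T held 1, on the opposite strand, 234 bases before it. The letters CTTTGA were found in 16% of all 32851 promoter windows in RefSeq, which also hold 50 bases after the start. Counted by gene, where any matching window counts, they were in 18.2% of all genes with a promoter and 14.1% of those tested. They were in 4 of the 11 Wnt targets that had a promoter there: Sp5, Sp8, Lef1 and Dkk1. Axin2 and Nkx1-2, both higher in Aurka inh, had none in this window. A match is a description of the letters only.

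A pair of Wnt ligand genes and the gene for a Wnt secretion enzyme were higher. Wnt8a was at 28.1, 28.3 and 27.6 CPM in Aurka inh and 1.7, 1.6 and 1.41 CPM in FGF2/Activin, with 0.132 CPM in 2iLif. Wnt5b was at 20.5, 22.2 and 21.7 against 3.28, 3.32 and 2.49 CPM. Porcn, the acyltransferase needed to secrete Wnt proteins, was at 15.9, 17.1 and 15.6 against 1.25, 1.72 and 1.28 CPM, and 16.1 CPM in the combination. In the 2 ligand genes the Aurka inh libraries were the highest of the series, and in Porcn they were level with the combination. Among receptors, Fzd10 was higher, at 26.5 ± 3.14 against 8.28 ± 0.462 CPM, and Fzd7 and the co-receptor gene Lrp5 were lower, with log2 fold changes of -0.94 ± 0.06 and -0.59 ± 0.075. In all, 5 of 17 tested ligand and receptor genes were higher and 5 lower, near the 25% and 30.1% of all genes tested. The core of the pathway was near the background, with 5 of 16 genes higher, 4 lower and 0 changed 2-fold, among them Ctnnb1, which encodes beta-catenin, at 571 ± 29.5 against 744 ± 13.2 CPM.

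Naive pluripotency genes were higher and formative genes lower in Aurka inh. Of 16 naive genes, all tested, 13 were higher and 2 lower, 12 and 2 of them at least 2-fold, with a median of 2.10, or 1.77 without Aurka inh replicate 2. Klf2, a Krüppel-like factor of the naive network, was at 100.4, 147 and 89.1 CPM in Aurka inh and 6.23, 5.23 and 7.09 CPM in FGF2/Activin. Esrrb, an orphan nuclear receptor, was at 152, 183 and 118 against 27.2, 31.7 and 31.9 CPM, and Nanog at 112, 146 and 99.1 against 36.4, 42.2 and 42.4 CPM. The groups did not overlap in these 3 genes, and replicate 2 was the highest Aurka inh library in each. The levels remained far below 2iLif for Esrrb and Nanog, at 863 and 530.3 CPM, and for Klf4 and Tfcp2l1, at 15.7 ± 1.84 and 74.2 ± 18.7 CPM in Aurka inh against 338 ± 8.81 and 1304 ± 49.1 CPM in 2iLif.

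Spic, an ETS factor of the naive state, had 3.32, 9.75 and 3.28 CPM in Aurka inh and 0 counts in FGF2/Activin, and was at least 79.1-fold higher against the limit of 3 counts over the group, or at least 51.2-fold without Aurka inh replicate 2, the highest. Tbx3, Nr5a2, Zfp42 and Prdm14 were higher, with log2 fold changes of 4.66, 2.73, 1.61 and 2.23. The 2 naive genes that were lower were Fgf4, given above, and Gbx2, a homeobox gene, at 0.5, 1.26 and 0.78 against 17.4, 18.2 and 17.6 CPM. Nr0b1 did not pass, at 17.7, 32.1 and 14.4 against 20.5, 22.3 and 20.2 CPM, with a log2 fold change of 0.01. Without Aurka inh replicate 2 it passed as lower, at -0.38.

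Of 16 formative and primed genes, all tested, 2 were higher and 14 lower, 0 and 9 of them at least 2-fold, with a median of -1.05. Pou3f1, the POU factor Oct6 of the formative epiblast, was at 38.7, 25.7 and 38.1 CPM in Aurka inh and 372, 353 and 356 CPM in FGF2/Activin. Sall2 was at 15.5, 11.3 and 17.6 against 159, 146 and 151 CPM and Sox3 at 9.82, 6.29 and 13.4 against 48.2, 45.3 and 46.1 CPM. Replicate 2 was the lowest Aurka inh library in all 3, and all Aurka inh libraries were below all FGF2/Activin libraries. They were still above 2iLif, where the means were 1.21 CPM for Pou3f1 and 1.39 CPM for Sall2. Otx2, a homeobox factor of the same state, differed less, at 103, 106 and 109.7 against 166, 170.1 and 172 CPM and 9.4 CPM in 2iLif. The 2 higher genes were Dnmt3l, a cofactor of de novo methylation, at 243 ± 60.7 against 140.5 ± 1.25 CPM, and Sox11 at 120.1 ± 8.94 against 92.8 ± 2.49 CPM. Sox11 did not pass without Aurka inh replicate 3 (0.34) or FGF2/Activin replicate 2 (0.35).

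The methyltransferase genes Dnmt3a and Dnmt3b, which belong to the formative list, were lower, at 471, 356 and 483 against 1358, 1385 and 1410.1 CPM and 1659, 1429 and 1605 against 2742, 2704 and 2693 CPM. Of 10 other genes of DNA methylation, 3 were higher and 6 lower, among them the dioxygenase genes Tet1 and Tet3, lower at -0.60 ± 0.13 and -1.12 ± 0.14, and the methyl-CpG-binding gene Mbd2, higher at 0.47 ± 0.066. Core pluripotency genes differed little: of 12 tested, 2 were higher and 6 lower, and 0 by 2-fold or more. Pou5f1 had a log2 fold change of 0.08 ± 0.088 and did not pass, Sox2 was higher, with a log2 fold change of 0.61 ± 0.11, and Utf1 lower, with -0.56 ± 0.054.

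**Figure D4:**
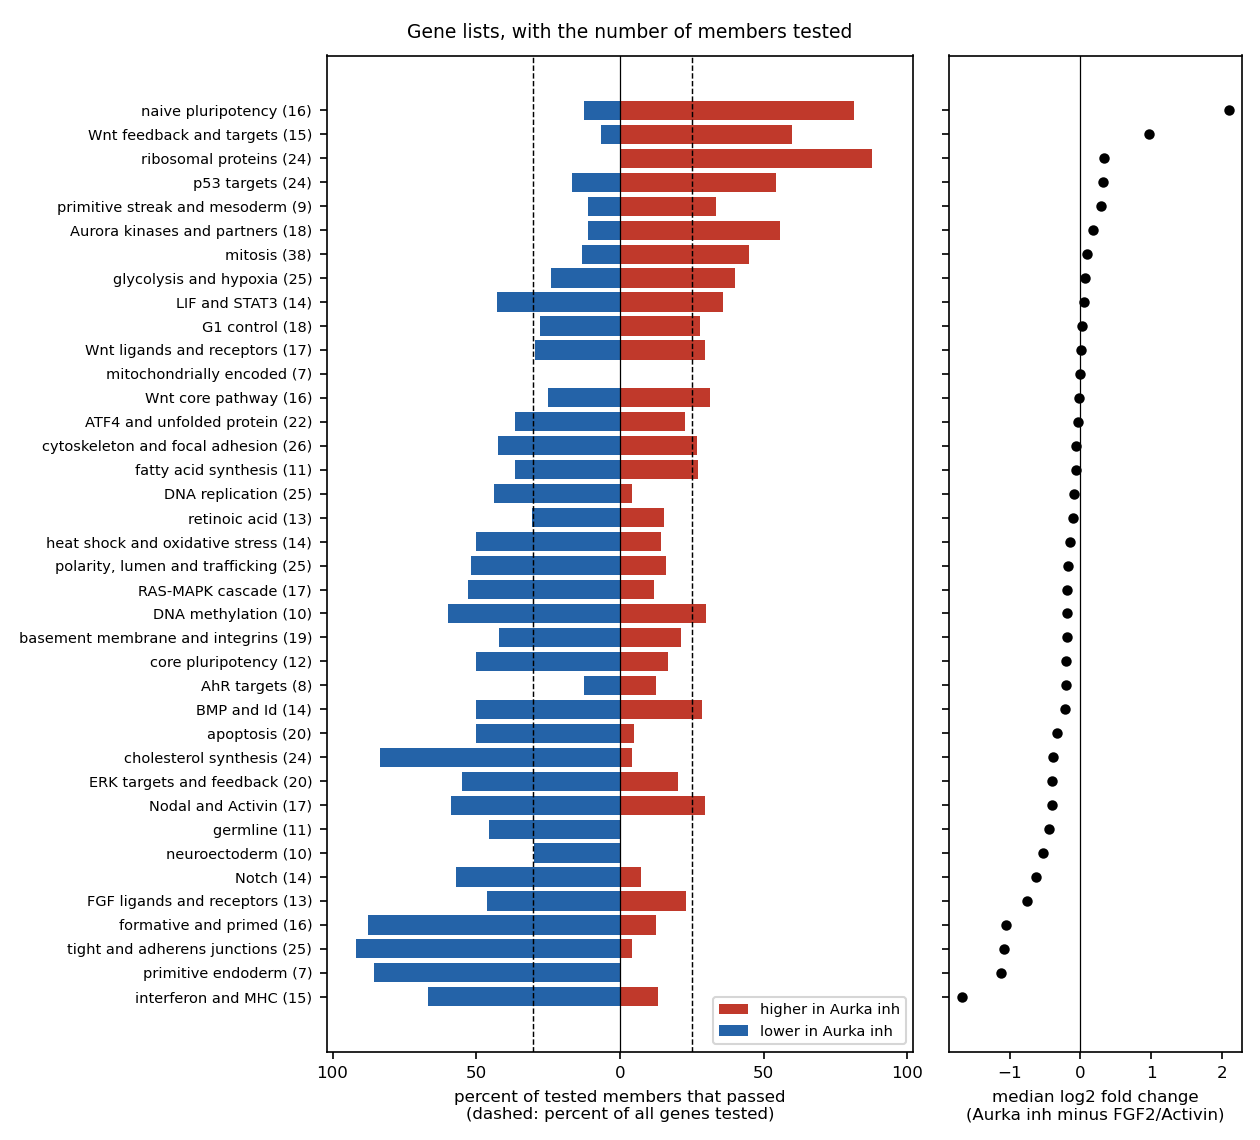
Left, percent of the tested members of each gene list (number tested in brackets) that passed as higher (red, to the right) or lower (blue, to the left) in Aurka inh, with dashed lines at the percent of all genes tested; right, the median log2 fold change of the list. Lists with fewer than 7 tested members are not drawn. Naive pluripotency and Wnt feedback stand at the top and interferon, primitive endoderm, junction and formative genes at the bottom.

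The genes of the LIF receptor chains were higher, and the LIF target Socs3 did not pass. Il6st, which encodes gp130, was at 158, 149 and 128 CPM in Aurka inh and 35.8, 39.4 and 42.5 CPM in FGF2/Activin, and Lifr at 56.2, 63.3 and 47.7 against 17.4, 18.1 and 20.3 CPM. Socs3, the feedback inhibitor induced by STAT3, was at 2.96, 2.2 and 3.07 against 2.23, 2.36 and 2.17 CPM and did not pass, while 2iLif, the only group with Lif, had 133 CPM. Stat3 itself was lower, at 28 ± 3.06 against 35 ± 0.798 CPM. Of 14 tested LIF and STAT3 genes, 5 were higher and 6 lower, against 25% and 30.1% of all genes tested. Their median was 0.05 and ranged from -0.017 to 0.13 with 1 library left out.

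BMP targets differed in both directions. Id3 and Id4, inhibitors of bHLH factors, were higher, at 60.2 ± 2.59 against 13.8 ± 1.48 CPM and 1.8 ± 0.683 against 0.428 ± 0.157 CPM. Id2, Msx1 and the inhibitory Smad gene Smad6 were lower, with log2 fold changes of -2.69 ± 0.18, -3.31 ± 0.30 and -2.03 ± 0.19, and Bmp4 was lower, with a log2 fold change of -1.22 ± 0.21. In all, 4 of 14 tested BMP and Id genes were higher and 7 lower, against 25% and 30.1% of all genes tested. In the Notch pathway 1 of 14 was higher, the ligand gene Jag1 at 40.1, 39.8 and 35.5 against 15.7, 15.8 and 15 CPM, and 8 were lower. Notch3 was at 83.3, 58.7 and 67.6 against 227, 221 and 218 CPM and Mfng, a sugar transferase that modifies Notch, at 1.14, 0.629 and 1.35 against 6.55, 7.85 and 6.39 CPM. Of 13 tested retinoic acid genes 2 were higher and 4 lower, against 25% and 30.1% of all genes tested. Dhrs3, a retinal reductase, was at 0.0455, 0.315 and 0 against 2.88, 3.45 and 2.81 CPM.

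Of 9 tested primitive streak and mesoderm genes 3 were higher in Aurka inh and 1 lower, against 25% and 30.1% of all genes tested. T, the T-box factor brachyury, was at 8.5, 6.86 and 9.26 CPM in Aurka inh and 0.721, 0.511 and 0.256 CPM in FGF2/Activin, a log2 fold change of 4.04 ± 0.25, and Snai1, a repressor of epithelial genes, at 24.6, 20.8 and 26.6 against 1.77, 1.08 and 1.28 CPM. Evx1 was at 1.32, 1.13 and 1.66 against 0.131, 0.0638 and 0.128 CPM. The Aurka inh libraries were the highest of the series for T, ahead of 2iLif with 4.46 CPM. Eomes, a T-box factor of the streak, was at 10.3 ± 0.993 against 12.8 ± 2.35 CPM and did not pass. The lower gene was Mixl1, at 0.682, 0.315 and 0.364 against 0.917, 0.957 and 1.15 CPM. It did not pass without Aurka inh replicate 2 (-0.92) or 3 (-0.94), or without any 1 of the FGF2/Activin replicates (-1.16 to -0.99). With all libraries kept, Mixl1 also did not pass by DESeq2 (-1.125), by voom with a weight per group (-1.145) or in the test against a fold of 1.2. Mesp1 and Msgn1, markers of nascent and presomitic mesoderm, had too few counts to be tested.

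Of 7 tested primitive endoderm genes, 0 were higher and 6 lower, among them Sox7 at 0.136, 0.315 and 0.104 against 1.05, 1.72 and 2.94 CPM and Dab2 at 1.46, 0.566 and 1.2 against 3.93, 4.4 and 3.26 CPM. Of 10 neuroectoderm genes 0 were higher and 3 lower, the latter share being close to the 30.1% of all genes: Sox1 at 0.0455, 0.126 and 0.156 against 1.51, 1.08 and 1.66 CPM, Tubb3 at 33 ± 0.751 against 67.7 ± 2.76 CPM and Dll1 at 8.38 ± 0.777 against 14.7 ± 0.228 CPM. Of 11 germline genes 0 were higher and 5 lower, led by Tdrd1 at 1.14, 0.315 and 1.09 against 6.09, 5.49 and 5.75 CPM. Among 6 trophoblast genes 3 were higher and 2 lower. The higher ones were Tfap2c, Tead4 and Ascl2, with log2 fold changes of 2.72, 1.36 and 0.53. Tfap2c and Tead4 were higher still in 2iLif, at 53.7 and 68.2 CPM, and Ascl2 did not pass without Aurka inh replicate 1 or 2 or FGF2/Activin replicate 2 or 3 (0.38 to 0.53). Krt7 and Ets2 were the lower ones, at -2.98 and -1.37. Hhex, in the definitive endoderm list of 2 tested genes, was higher at 7.7 ± 1.13 against 2.89 ± 0.557 CPM.

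RNA of the inhibitor's target was higher in Aurka inh. Aurka was at 190.5, 199 and 207 CPM in Aurka inh and 146, 146 and 141 CPM in FGF2/Activin, a log2 fold change of 0.46 ± 0.051 (adjusted p = 1.3e-06, edgeR). The 3 Aurka inh libraries were the highest and the 3 FGF2/Activin libraries the lowest of all 15. An inhibitor of the kinase need not alter its RNA, so this value does not check the label. Of 18 tested genes of Aurora kinases and their partners, 10 were higher and 2 lower, and 0 by 2-fold. Bora, an activator of Aurora A, was at 71.4 ± 3.81 against 49 ± 1.76 CPM, Plk1 at 208 ± 4 against 183 ± 0.605 CPM, and Aurkb at 115 ± 1.64 against 103 ± 1.07 CPM. The call for Aurkb did not hold without FGF2/Activin replicate 3 (0.14). Tpx2, the spindle partner of Aurora A, did not pass, at 287 ± 10.5 against 281 ± 1.74 CPM. Ajuba, a further activator, and Cenpj, a centriole protein, were the 2 lower genes, with log2 fold changes of -0.68 and -0.47.

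More genes of mitosis passed as higher than as lower, and more genes of DNA replication as lower than as higher, all by less than 2-fold. Of 38 mitotic genes 17 were higher and 5 lower, with 0 at 2-fold and a median of 0.10, or 0.058 without Aurka inh replicate 3. The largest differences were in Cdc25c, the phosphatase that activates CDK1, at 28.7, 28.2 and 29.9 CPM in Aurka inh and 14.9, 15.7 and 15.1 CPM in FGF2/Activin, and in the kinesin gene Kif20b and the kinetochore gene Cenpf, with log2 fold changes of 0.63 ± 0.051 and 0.59 ± 0.068. Cdc25c was about equally high in the other 3 groups, at 26 to 30.2 CPM on average. Cyclin B1 (Ccnb1) was at 339.9 ± 4.27 against 303 ± 1.61 CPM, and Top2a, which unlinks DNA strands in mitosis, did not pass. Of 25 replication genes 1 was higher and 11 lower, with Tk1 at 55.3, 58.5 and 55.1 against 93.5, 96.9 and 94.6 CPM and Cdc6 at 91.5 ± 1.41 against 124 ± 3.53 CPM. The higher gene was Cdt1, which licenses origins, at 272 ± 3.89 against 226 ± 1.76 CPM.

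Cell cycle inhibitors were led by Cdkn1a, which encodes p21, a p53 target. It was at 194, 183 and 198 CPM in Aurka inh and 53.8, 52.6 and 56.4 CPM in FGF2/Activin, a log2 fold change of 1.82 ± 0.06. The Aurka inh libraries were the highest and the FGF2/Activin libraries the lowest of the 15, with means of 130.5 CPM in 2iLif, 142 CPM in the combination and 62.1 CPM in PD032. Of 24 tested p53 targets 13 were higher and 4 lower, with a median of 0.31, and Cdkn1a was the only higher one of at least 2-fold. Phlda3, Sesn2 and Ccng1 were higher, with log2 fold changes of 0.82 ± 0.068, 0.54 ± 0.081 and 0.41 ± 0.049. Trp53 itself was at 378 ± 13.8 against 264 ± 4.47 CPM. Mdm2, Btg2, Sesn1 and Perp were the lower ones, with Mdm2 at 136 ± 5.29 against 158 ± 1.18 CPM and Perp at 3.46 ± 0.929 against 9.04 ± 0.675 CPM.

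In the control of G1, 5 of 18 genes were higher and 5 lower, close to the 25% and 30.1% of all genes tested. Ccne1, which encodes cyclin E1, was at 168, 151 and 180.4 CPM in Aurka inh and 441, 427 and 430.4 CPM in FGF2/Activin. The latter were the highest of the series, where 2iLif had 198 CPM. Cdkn1b, which encodes p27, and the pocket protein genes Rbl1 and Rbl2 were higher, with log2 fold changes of 0.55, 0.64 and 1.24. Cdkn1c, which encodes p57, was lower, with a log2 fold change of -1.15.

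Of 20 tested apoptosis genes, 1 was higher and 10 lower, and the lower ones held both survival and killer genes. Mcl1, a survival factor, was at 323, 337 and 327 CPM in Aurka inh and 607, 612 and 625 CPM in FGF2/Activin, and Bcl2l1, which encodes Bcl-xL, at 30.7 ± 1.63 against 52.1 ± 0.482 CPM. Bcl2l11, which encodes the killer protein Bim, was at 41.4, 31.7 and 37.2 against 92.2, 94 and 92.9 CPM and Bak1, a pore former, at 59.1 ± 10.3 against 110.1 ± 5.55 CPM. Pmaip1, which encodes the killer protein Noxa, was the higher gene, at 70.4, 88.9 and 64.3 against 61.7, 57.4 and 62.3 CPM. It did not pass without Aurka inh replicate 2 (0.16) or without FGF2/Activin replicate 1 (0.31) or 2 (0.26).

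Junction genes were lower almost throughout the list. Of 25 tight and adherens junction genes, all tested, 1 was higher and 23 lower, 0 and 13 of them at least 2-fold. The median was -1.08, and without Aurka inh replicate 2 the counts were again 1 and 23. Among tight junction proteins, Ocln, which encodes occludin, was at 1.91, 1.32 and 2.76 CPM in Aurka inh and 22.1, 21.6 and 18.5 CPM in FGF2/Activin. Cldn7 was at 8.91, 4.91 and 9.41 against 55.8, 58.8 and 61.8 CPM and Cldn6 at 56.8, 38.8 and 59.6 against 140.4, 136 and 137 CPM. No Aurka inh library reached the level of any FGF2/Activin library in these 3 genes. The means in 2iLif, the combination and PD032 were 2, 1.32 and 4.03 CPM for Ocln and 6.14, 2.05 and 6.64 CPM for Cldn7. In Ocln and Cldn7 only FGF2/Activin lay outside the other 12 libraries. Dsp, given below, was at 20.5 CPM in 2iLif, above its 16.1 CPM in FGF2/Activin.

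Cldn4 was at 43.2, 40 and 40.6 CPM in Aurka inh, the lowest of the 15 libraries, and 108, 106 and 108 CPM in FGF2/Activin, the highest. The scaffold genes Tjp1 and Tjp3 were lower, with log2 fold changes of -0.74 ± 0.17 and -1.98 ± 0.12. Cdh1, which encodes E-cadherin, differed least among those that passed, at 695, 670.2 and 682 against 879, 880.4 and 910.1 CPM. Of the desmosome genes, Dsp and Pkp3 were lower, with log2 fold changes of -2.64 and -2.40, and Dsg2, a desmosomal cadherin, was the 1 higher gene, at 76.4, 67.2 and 70.4 against 36, 38.6 and 39 CPM. The splicing regulators of epithelia, Esrp1 and Esrp2, were lower, with log2 fold changes of -0.63 and -0.77.

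**Figure D5:**
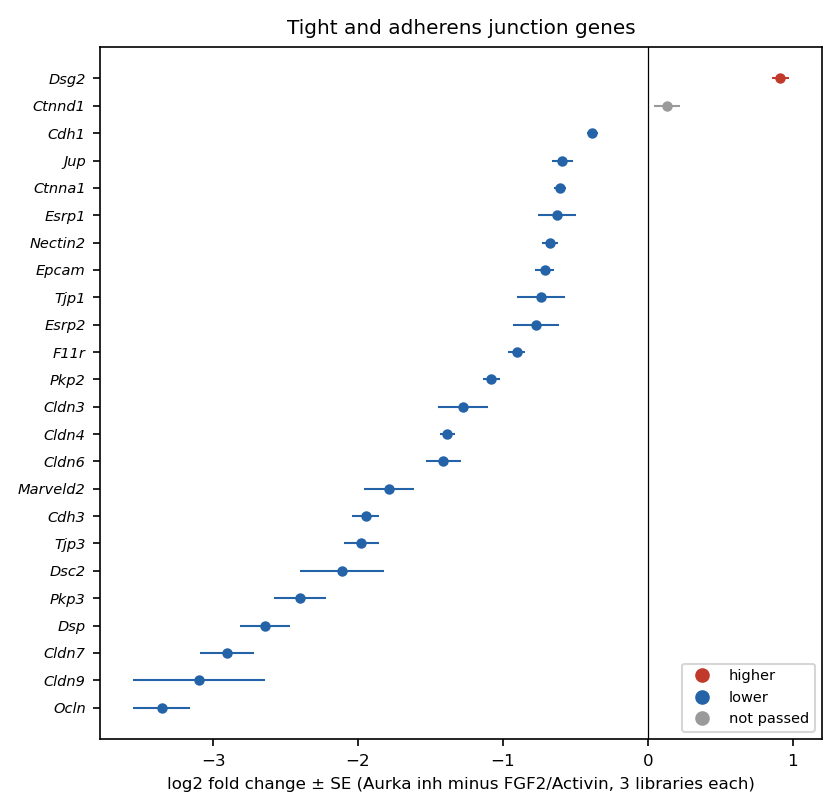
Log2 fold change of Aurka inh over FGF2/Activin (x axis) ± approximate standard error for 24 of the 25 tight and adherens junction genes, 3 libraries per group. Blue passed as lower, red as higher, and grey did not pass. All but Dsg2 and Ctnnd1 lie left of 0, from -0.38 for Cdh1 to -3.35 for Ocln.

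Polarity and lumen genes followed in part. Of 25 tested, 4 were higher and 13 lower, 1 and 6 of them at least 2-fold. Cgn, which encodes cingulin of the tight junction, was at 17.5, 10.1 and 17.4 CPM in Aurka inh and 76.9, 78.2 and 80.5 CPM in FGF2/Activin, and Crb3, an apical polarity protein, at 4.91, 4.09 and 5.36 against 20.9, 21.2 and 20 CPM. Podxl, the sialomucin podocalyxin that lines the lumen, was at 157, 86 and 149 against 199, 203 and 203 CPM, with replicate 2 the lowest, and 373 CPM in PD032. Patj and Pard6b, which act in apical complexes, were lower, with log2 fold changes of -1.22 ± 0.094 and -1.32 ± 0.075. Prkci, the atypical protein kinase C of the apical complex, did not pass, with a log2 fold change of -0.06.

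The keratins of simple epithelia and 1 integrin had some of the largest differences. Krt18 was at 4.82, 3.52 and 5.57 CPM in Aurka inh and 79, 71.3 and 77.8 CPM in FGF2/Activin, and its partner Krt8 at 1.23, 1.01 and 0.884 against 19.8, 19.2 and 20.2 CPM. Krt8 was higher still in 2iLif, at 32.1 CPM, where Krt18 had 3.29 CPM. Krt7, a keratin in the trophoblast list, was at 0.819, 0.503 and 0.676 against 5.24, 4.91 and 6.07 CPM. Itga3, a laminin-binding integrin chain, was at 6.14, 3.46 and 6.5 against 126, 129 and 122 CPM, with means of 3.17 to 11.1 CPM in the other 3 groups. Reads of Krt8 and Krt18 could be shared with their processed pseudogenes.

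Other laminin receptor genes were lower too, with log2 fold changes of -1.04 ± 0.056 for Itga6, -0.86 ± 0.058 for Itgb1 and -0.55 ± 0.071 for Dag1, which encodes dystroglycan. Among basement membrane genes, Lamb1 and Hspg2 were lower, with log2 fold changes of -1.13 ± 0.11 and -1.18 ± 0.16, whereas Nid1 and Nid2 were higher, with log2 fold changes of 1.10 ± 0.20 and 0.30 ± 0.055. Itga1, a collagen receptor chain, was higher, at 11.5, 4.97 and 9.15 against 1.64, 1.28 and 1.47 CPM. In all, 4 of 19 tested genes of basement membrane and integrins were higher and 8 lower. In the cytoskeleton list 7 of 26 were higher and 11 lower. Both lists stand beside 25% higher and 30.1% lower over all genes tested. Vim, an intermediate filament of mesenchymal cells, was at 114, 134 and 116 against 57.5, 57.8 and 56.4 CPM, and Zyx, a focal adhesion protein, at 93.4, 73.1 and 91.4 against 41.9, 38.9 and 38 CPM and no more than 12.5 CPM on average in the other 3 groups.

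Interferon-inducible and antigen presentation genes were lower in Aurka inh. Of 15 tested, 2 were higher and 10 lower, 2 and 9 of them at least 2-fold, with a median of -1.67. The guanylate-binding protein genes, which are not in this list and were among the largest decreases, lie side by side on chromosome 3. Gbp2 (chr3:142620602-142638008) was at 0.955, 0.566 and 0.936 CPM in Aurka inh and 41.9, 43.6 and 43 CPM in FGF2/Activin. Gbp2b (chr3:142594847-142619179) was at 0.728, 0.378 and 0.832 against 39.5, 35.9 and 39.5 CPM and Gbp3 (chr3:142560026-142573209) at 0.136, 0.126 and 0.104 against 10.8, 10.5 and 8.88 CPM. They are close paralogs, so reads may be split among them. In all 3 the groups were far apart, and the means of 2iLif, the combination and PD032 were no more than 1.01 CPM.

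Psmb8, a subunit of the immunoproteasome, had 1 count over the Aurka inh libraries and 6.88, 6.57 and 6.26 CPM in FGF2/Activin, a ratio of counts of 375.1 (95% exact interval 66.8 to 14860.0). Ifit1, a sensor of foreign RNA, had 0 counts in Aurka inh and 1.77, 1.79 and 1.53 CPM in FGF2/Activin, at least 32.3-fold lower against the limit of 3 counts over the group. Isg15, a ubiquitin-like modifier, had 1 count in Aurka inh and 1.83, 1.15 and 1.34 CPM in FGF2/Activin, a ratio of 82.1 (95% exact interval 14.2 to 3292). Oasl2, a relative of the oligoadenylate synthetases, was at 0.136, 0.0629 and 0.208 against 17.6, 15.9 and 16.2 CPM. Irf1, a transcription factor of this response, was at 32.4, 39.4 and 35.8 against 131, 119.7 and 125 CPM, and the MHC class I gene H2-K1, which has close paralogs, at 13.5, 8.81 and 16.9 against 52.4, 52.3 and 49.3 CPM. The 2 higher genes were Ifitm1 at 45.3 ± 7.83 against 18.6 ± 1.28 CPM and Oas1a at 2.99 ± 1.28 against 1.42 ± 0.405 CPM, and Oas1a did not pass without Aurka inh replicate 2 (0.71) or FGF2/Activin replicate 3 (0.82).

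Upstream sequences of 3 of these genes are shown because the genes were near 0 in every Aurka inh library and their promoters hold letters of the interferon-stimulated response element. The motif searched was GAAA, 2 bases of any kind and GAAA again, on either strand, with matches in capitals, and the 250 bases before the RefSeq start on GRCm38.p6 are printed 5′ to 3′ on the gene's strand.
Gbp2, chr3:142620413-142620662, plus strand: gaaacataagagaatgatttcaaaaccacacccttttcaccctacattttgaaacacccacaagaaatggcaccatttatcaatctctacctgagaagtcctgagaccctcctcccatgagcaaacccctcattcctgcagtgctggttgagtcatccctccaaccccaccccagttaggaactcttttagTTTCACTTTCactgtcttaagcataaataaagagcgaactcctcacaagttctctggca
Ifit1, chr19:34640639-34640888, plus strand: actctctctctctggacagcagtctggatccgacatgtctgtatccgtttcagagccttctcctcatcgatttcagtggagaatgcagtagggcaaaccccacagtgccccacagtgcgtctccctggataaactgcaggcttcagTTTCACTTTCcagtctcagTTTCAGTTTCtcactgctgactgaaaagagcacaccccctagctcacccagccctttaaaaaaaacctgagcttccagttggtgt
Isg15, chr4:156200819-156201068, minus strand: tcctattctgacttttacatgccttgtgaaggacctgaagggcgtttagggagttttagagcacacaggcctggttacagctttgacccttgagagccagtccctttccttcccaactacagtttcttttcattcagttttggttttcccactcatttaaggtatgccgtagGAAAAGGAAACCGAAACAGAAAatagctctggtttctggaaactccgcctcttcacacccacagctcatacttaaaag
Gbp2 held 1 match, Ifit1 held 2 and Isg15 held 3 that overlap each other. The motif was found in 3.44% of all promoter windows in RefSeq. Counted by gene, it was in 3.99% of all genes with a promoter, 3.37% of those tested and 10 of the 17 interferon and MHC genes. Oas1a, which was higher in Aurka inh, was among the 10. Gbp3 and Gbp2b held it as well, and Oasl2, Psmb8, Irf1, Tap1 and H2-K1 did not. The Psmb8 window begins at chr17:34197945, inside the gene as placed by GENCODE M21 (from 34197721), so it leaves out that annotated start. The motif was chosen for the search after the genes of this group had been seen to be mostly lower.

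Genes of cholesterol synthesis were lower, with log2 fold changes of small amounts. Of 24 tested, 1 was higher and 20 lower, 1 and 1 of them at least 2-fold, with a median of -0.38. Hmgcs1, the synthase that starts the pathway, was at 543, 492 and 531 CPM in Aurka inh and 729, 749 and 748 CPM in FGF2/Activin. Stard4 and Pmvk were lower, with log2 fold changes of -0.75 ± 0.087 and -0.90 ± 0.075. Ebp, a sterol isomerase, went the other way, at 50.8, 60 and 50.8 against 13.2, 12.1 and 12.8 CPM, and was as high in 2iLif and the combination, at 63 and 63.7 CPM. Replicate 2 was the lowest Aurka inh library in 22 of the 24 genes, and without it 2 were higher and 18 lower. Fatty acid synthesis genes were near the background, with 3 of 11 higher and 4 lower.

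Glycolysis and hypoxia genes went both ways, with 10 of 25 higher and 6 lower. The glucose transporter gene Slc2a3 was at 218, 219 and 177 CPM in Aurka inh and 65.6, 61.4 and 75.4 CPM in FGF2/Activin, and Pfkp, a phosphofructokinase, at 367, 401 and 322 against 186, 189 and 199.7 CPM. Slc2a1, the other main glucose transporter gene, was lower, with a log2 fold change of -0.46 ± 0.083. The lactate exporter gene Slc16a3 and the oxygen sensor gene Egln3 had -1.12 ± 0.15 and -2.16 ± 0.17. Of 22 genes of the ATF4 and unfolded protein responses, 5 were higher and 8 lower, near the 25% and 30.1% of all genes tested. Asns, which makes asparagine, was at 1054 ± 53.2 against 628 ± 9.37 CPM, and Hspa5, the chaperone BiP, at 708 ± 38 against 1007 ± 16.7 CPM. Of 14 genes of heat shock and oxidative stress, 2 were higher and 7 lower, with Srxn1 and Txnrd1, targets of NRF2, lower at -1.13 ± 0.10 and -0.60 ± 0.04. Of 8 AhR targets 1 was higher and 1 lower.

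Ribosomal protein genes were slightly higher, 21 of 24 with 0 lower and a median of 0.33. Without Aurka inh replicate 2, the highest of the 3 libraries in each of these genes, 16 passed and the median was 0.24. Rps20 had the largest difference, at 744, 952 and 811 CPM in Aurka inh and 478, 472 and 472 CPM in FGF2/Activin. Of 7 tested mitochondrially encoded genes 0 passed in either direction by edgeR, while without Aurka inh replicate 2, again the highest of its group, 0 were higher and 2 lower.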

How the data were processed

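The deposited table held raw counts per gene as whole numbers, the authors' own, for 15 libraries of poly(A)-selected RNA with RNA integrity numbers above 7 per the labels' protocols. A second deposited table held the authors' normalized values on the log2 scale and served only as an alternative. The submitters' processing notes name STAR, DESeq2 and the build mm10. Neither versions nor the counting tool and its strand setting are given in the sources used here.

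Genes were placed by identifier in GENCODE M21. The filter filterByExpr of edgeR kept 15223 of 49585 genes. Counts were scaled by TMM, and all 15 libraries were fitted in 1 quasi-likelihood model of edgeR 4.0.16 (R 4.3.3) with a term per group. The contrast was Aurka inh minus FGF2/Activin, and a gene passed at an adjusted p under 0.05 (Benjamini-Hochberg over the 15223 genes). CPM are counts per 1000000 of the TMM-scaled total. The code was tested on simulated data. No batch term could be fitted, because column naming style coincides with the 2 groups. Groups were taken from the sample titles.

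The 42 gene lists held 743 genes, 739 of them in the table. The members and lists were chosen with earlier results of these data known. Genes were named by rule: the 12 largest fold changes each way among genes that passed, had a mean of at least 10 CPM in the higher group, a standard symbol and groups that did not overlap, then 8 each way where Aurka inh and 5 each way where FGF2/Activin lay outside the other 12 libraries, up to 4 members of each list with the largest fold change, and a set of pathway genes. Some genes that the rule picks are not reported here. Others were named for their role after their values had been seen. Each list was described by counts and a median, with no test of the list.

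Where a group had 0 counts of a gene, the fold is a lower bound that takes 3 counts over the group as its limit. With 1 to 3 counts the ratio has an exact 95% interval. Intervals and bounds cover counting error only. Promoters, 250 bases before to 50 after the start, came from RefSeq on GRCm38.p6. The alternatives were DESeq2 1.42.0, library size alone, no filter, only the 6 libraries, the replicate number as a block, limma 3.58.1 with voom and a weight per group, protein-coding genes only, limma on the deposited log2 table, a test against a fold of 1.2, and leaving out each library. List counts without Aurka inh replicate 2 and the interferon motif were added after seeing the data.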

Additional observations from a re-analysis of the deposited data

How the results depend on the processing

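Over 15 alternatives, of the 234 genes named, 213 kept their direction and their side of the threshold wherever they were tested. The count of 3812 higher and 4577 lower genes was 3705 and 4400 with DESeq2, and 2312 and 2992 in the edgeR test against a fold of 1.2. The 1170 genes at least 2-fold higher were 747 among protein-coding genes only, and 285 with limma on the deposited log2 table, where 531 were 2-fold lower in place of 1704. Leaving out 1 library at a time gave 3329 to 3640 higher, 4158 to 4438 lower, 1080 to 1183 at least 2-fold higher and 1663 to 1788 at least 2-fold lower. The log2 fold change of Nr0b1, 0.01, was -0.10 with voom, -0.025 with the deposited log2 table and -0.00051 with the replicate block. Leaving out 1 library at a time gave it -0.38 to 0.23. The cause was not tested. Egr1 and Fos passed as higher with no filter, at 1.13 and 1.29, and with the replicate block, at 1.03 and 1.12, and Egr1 also in the fit of the 6 libraries alone, at 1.16.

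Same-numbered libraries of the groups did not deviate together across genes (r = 0.0092, -0.011 and -0.036 for replicates 1, 2 and 3, over genes that are not independent), so the numbers were not taken as pairs. The fit with the replicate block over the 6 libraries called 3647 higher and 3755 lower genes. Of 615 list medians recomputed, 65 moved by more than the spread over the Aurka inh libraries, and those of 9 lists changed sign, none above 0.298 in size. With limma on the deposited log2 table the median of the ERK targets was -0.26 and that of the Wnt targets 0.35. Genes at a few counts, such as T, Evx1, Sox1 and Dhrs3 in 1 of the groups, are limited by depth.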

Other observations

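Long noncoding RNA made up more of the counts in Aurka inh. Of 837 long noncoding RNA genes tested, 214 were at least 2-fold higher and 65 at least 2-fold lower, and their summed level was 8755 to 9261 CPM in Aurka inh against 5685 to 5892 CPM in FGF2/Activin. It was 6263 to 6493 CPM in 2iLif, 8035 to 8442 CPM in PD032 and 8620.0 to 8656 CPM in the combination, so the 9 libraries of one column naming style were above the 6 of the other. Of 191 genes of the annotation class TEC, loci whose transcripts still await experimental evidence, 83 were at least 2-fold higher and 3 lower. Among 13331 protein-coding genes the split was the other way, with 709 at least 2-fold higher and 1510.0 lower. Whether library preparation differed between the styles was not tested.

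Several of the largest differences lie outside the gene groups described above. Car4, a membrane-anchored carbonic anhydrase, was at 1.41, 0.566 and 1.51 CPM in Aurka inh and 45.8, 47.2 and 47.3 CPM in FGF2/Activin. Ephx2, a soluble epoxide hydrolase, was at 122, 167 and 130.4 against 5.11, 5.68 and 6 CPM, and Sall3, a zinc finger factor, at 71, 79.2 and 68.4 against 1.51, 1.28 and 1.47 CPM. Among genes in which Aurka inh alone was extreme, Icam1, an adhesion receptor for leukocytes, was at 3.87, 3.4 and 3.54 against 11.1, 12.1 and 11.8 CPM, and Aldh1b1, a mitochondrial aldehyde dehydrogenase, at 4.5, 6.54 and 4.73 against 17, 20.4 and 20.9 CPM. All 5 genes were picked by a rule that requires groups without overlap, which held for 62.5% of all genes tested.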
